A study of Homo sapiens with 6 samples.

Results

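The genes of the unfolded protein response and the chaperones of the endoplasmic reticulum (ER) were examined in MDA-MB-231 cells, a standard line derived from a breast cancer that lacks hormone receptors. They were 31 genes chosen by symbol, out of 60461 rows of the count table, by a rule that names no measured value. The choice was made with earlier results of these data known. All 31 had a row of their own, and all 31 passed the filter on low counts that left 18899 genes for testing. The 3 ADAR1 p110 libraries came from cells transduced with an adenovirus carrying the coding sequence of ADAR1 p110, the constitutive nuclear form of an enzyme that edits adenosine to inosine in double-stranded RNA. The 3 GFP libraries came from cells transduced with an adenovirus carrying enhanced green fluorescent protein. Both groups therefore carried adenovirus, each at a multiplicity of infection of 200, with a medium change at 16 h and total RNA extraction at 48 h. The promoter that drove each insert is not given in the sources used here, and untransduced cells were not analysed here. The replicates are labelled as biological without a description of separate cultures, so the p-values speak only to the spread between these libraries.

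The unfolded protein response senses misfolded proteins in the ER lumen through the membrane proteins IRE1 (gene ERN1), PERK (EIF2AK3) and ATF6. The chaperone BiP (HSPA5) binds client proteins and also holds these sensors inactive. Once active, IRE1 splices the messenger RNA of XBP1, PERK phosphorylates the translation factor eIF2alpha, and ATF6 moves to the Golgi, where it is cut into a transcription factor. XBP1 and ATF6 then raise the transcription of chaperones, disulfide isomerases and genes of ER-associated degradation, a route that returns misfolded proteins to the cytosol for the proteasome. Cancer cells use the same machinery to fold secreted matrix proteins and receptors.

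ADAR averaged 1006 ± 13.2 CPM in the ADAR1 p110 libraries and 267 ± 8.67 CPM in the GFP libraries (SD, n = 3 each; log2 fold change 1.91, SE 0.049, edgeR adjusted p = 2.67e-09), where CPM are counts per 1000000 of a library total scaled by the trimmed mean of M-values (TMM). Library totals lay between 72741235 and 99589278 counts. With 3 counts taken as the limit for a count of 0, the limits were 0.0301 to 0.0412 counts per 1000000 of the unscaled total, counting error only. Of 6 markers of the cell line, 5 were abundant (VIM, CD44, AXL, MSN and CAV1) and SPARC averaged 1.25 CPM in the ADAR1 p110 libraries and 1.53 CPM in the GFP libraries. Summed, these markers were at 5357 to 5563 CPM in the ADAR1 p110 libraries and 5078 to 5262 CPM in the GFP libraries. Those ranges did not overlap, and CAV1 was higher with ADAR1 p110 (log2 fold change 0.20, edgeR adjusted p = 0.0378). The other 5 markers did not pass the threshold of 0.05. The luminal genes ESR1 and PGR were near 0. Of 5 markers of plasma cells, which are rich in ER, MZB1, JCHAIN, TNFRSF17 and IGKC were under 1 CPM in every library, and SDC1, which epithelial cells also express, averaged 146 CPM with ADAR1 p110 and 154 CPM with GFP. Summed markers of leukocytes, fibroblasts and plasma cells overlapped between the groups. Those of endothelium were at 7.31 to 7.87 CPM in the ADAR1 p110 libraries and 9.84 to 10.7 CPM in the GFP libraries. CDH5 and VWF were under 1 CPM, so this gap came through KDR alone (log2 fold change -0.45, edgeR adjusted p = 0.00603). The part of the endothelial markers in the results was not tested. On the second principal component of all genes, ADAR1 p110 replicate 1 and GFP replicate 2 stood apart from the other 4 libraries, at 17.0 and 11.3 against -8.46 to -5.72.

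Promoter sequences of the members were searched for an element that is known from genes of this response. The ER stress element, CCAAT and CCACG with 9 bases of any kind between them, is bound by the factor NF-Y at its CCAAT end and by ATF6 or XBP1 at its CCACG end. A second form, ATTGG and CCACG with 1 base between them, joins the reversed CCAAT box to the same core. Both were searched on both strands of RefSeq promoter windows (build GRCh38.p14) that run from 250 bases before to 50 bases after a gene's start, and 27 of the 31 members had a window. PDIA3, DERL1, DERL3 and SEC24D had none. The first form was in the windows of 7 of the 27 members, against 0.0916% of all 27305 genes with a window. The second was in 3 of 27, against 0.0696% of genes. The elements were defined on promoters of such genes, so their presence here describes the members and is not an independent result. No member held both forms, and a match is a run of letters, not evidence of binding. Only exact matches to the fixed letters were counted, so elements that differ in any fixed letter were missed. The windows of HSPA5 (chr9:125241294-125241593, minus strand) and HYOU1 (chr11:119057156-119057455, minus strand) are printed because both genes were lower with ADAR1 p110. Capitals mark the fixed letters of the first form in HSPA5 and of the second form, read on the opposite strand, in HYOU1.
HSPA5: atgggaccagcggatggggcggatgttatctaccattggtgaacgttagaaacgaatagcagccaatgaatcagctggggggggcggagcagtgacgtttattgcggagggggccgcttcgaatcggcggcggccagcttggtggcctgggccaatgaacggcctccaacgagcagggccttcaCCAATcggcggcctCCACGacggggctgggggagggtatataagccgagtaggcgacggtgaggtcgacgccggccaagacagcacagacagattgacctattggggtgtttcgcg
HYOU1: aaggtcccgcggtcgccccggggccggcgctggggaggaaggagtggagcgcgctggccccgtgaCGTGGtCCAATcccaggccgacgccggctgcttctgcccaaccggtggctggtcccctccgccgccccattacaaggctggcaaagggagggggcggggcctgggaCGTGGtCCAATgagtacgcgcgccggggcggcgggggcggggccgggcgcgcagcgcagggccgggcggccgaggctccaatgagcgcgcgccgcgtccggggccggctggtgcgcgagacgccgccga

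The matches in the other members are given in the motif's own direction, with the fixed letters in capitals, so that the variable middle can be compared with that of HSPA5.
CALR (chr19:12938384-12938402, minus strand): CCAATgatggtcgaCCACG
CANX (chr5:179698778-179698796, plus strand): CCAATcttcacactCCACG
CRELD2 (chr22:49918554-49918572, minus strand): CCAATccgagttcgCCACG
HSP90B1 (chr12:103930216-103930234, plus strand): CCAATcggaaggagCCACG
HSP90B1, second match (chr12:103930321-103930339, minus strand): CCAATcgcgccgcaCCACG
PDIA6 (chr2:10812853-10812871, minus strand): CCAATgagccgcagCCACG
XBP1 (chr22:28800603-28800621, minus strand): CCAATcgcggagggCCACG
HERPUD1 (chr16:56932025-56932035, plus strand): ATTGGgCCACG
SDF2L1 (chr22:21642114-21642124, minus strand): ATTGGtCCACG

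The comparison asked which of these genes changed when ADAR1 p110 was raised. Of the 31 members, 4 passed the test, against 4.91% of all tested genes: 3 fell (ERN1, HSPA5 and HYOU1) and 1 rose (TXNDC5), by the edgeR quasi-likelihood test with a Benjamini-Hochberg adjusted p under 0.05 over all 18899 genes. Over all tested genes 2.96% fell and 1.95% rose. The changes were small, from 12.4% to 34.7% lower and 28.9% higher, and no member passed a test against a 1.5-fold change, which 0.397% of all genes passed. In 15 members every ADAR1 p110 library lay below every GFP library, and in 1 every one lay above, where 12.2% and 11.8% of all tested genes did so. The median log2 fold change was -0.11 over the members and 0.00 over all tested genes. A negative value was seen in 28 of 31 members, against 9222 of all 18899 tested genes. With library size alone in place of TMM, 25 members were negative and the median over all genes was 0.0285. At an unadjusted p under 0.05 there were 12 lower members and 1 higher, against 9.43% and 9.21% of all tested genes. These are bulk libraries, in which fewer cells with a transcript and less of it per cell cannot be told apart.

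**Figure D1:**
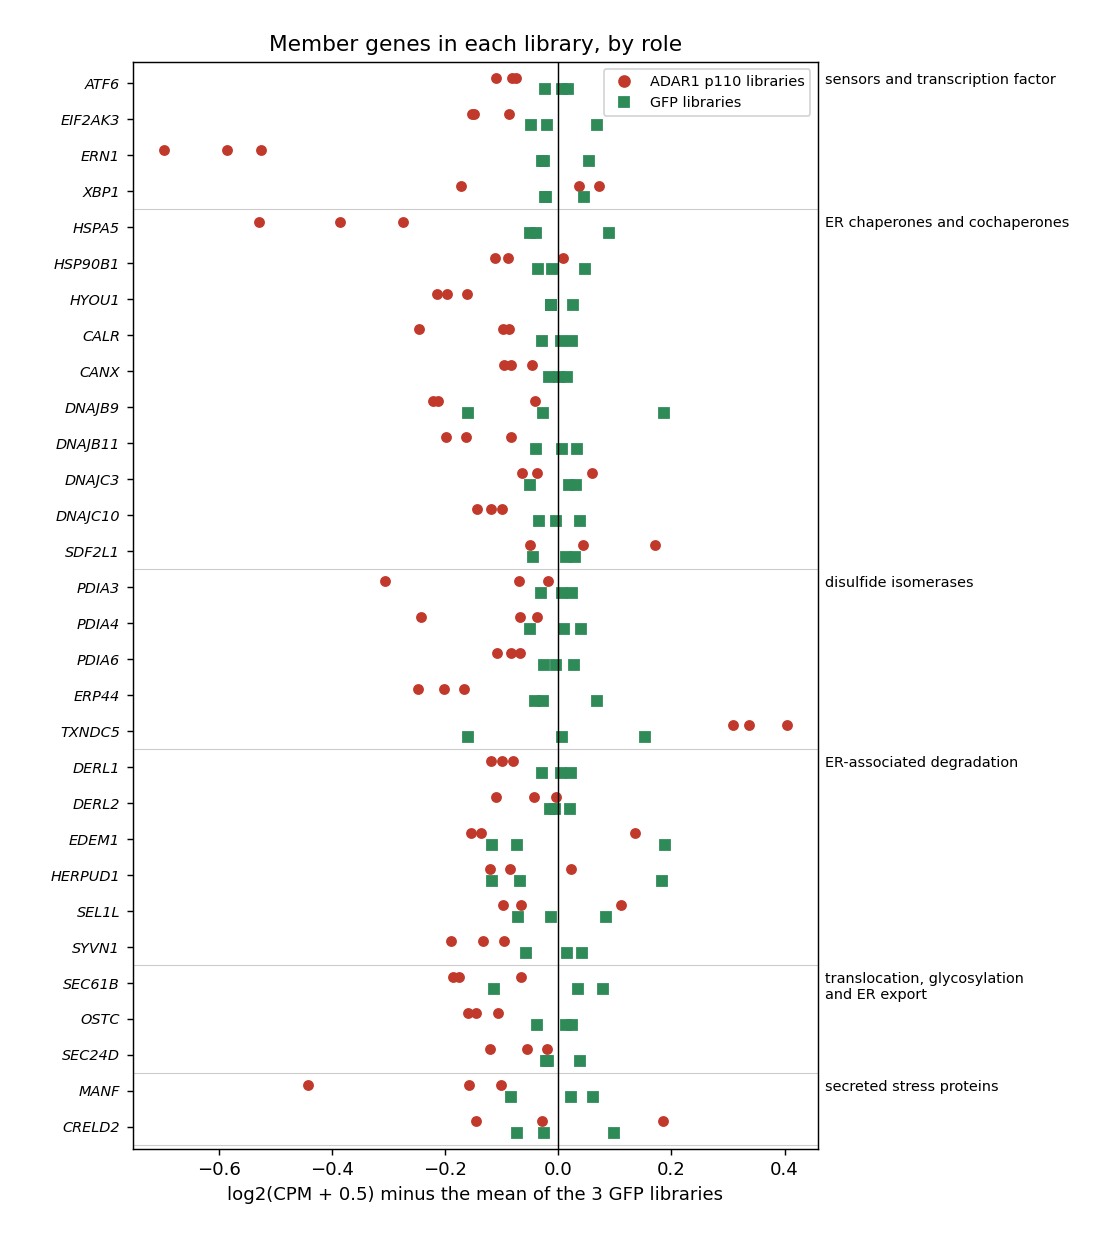
Log2(CPM + 0.5) of 30 member genes in each library, minus the mean of the 3 GFP libraries (horizontal axis), grouped by role, with ADAR1 p110 libraries as red circles and GFP libraries as green squares. ERN1 and HSPA5 lie farthest to the left and TXNDC5 farthest to the right, and DERL3, at under 1 CPM, is left out.

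Among the sensors, only the transcript of IRE1 passed the test. ERN1 (hg19 chromosome 17, 62116502 to 62208179, minus strand) stood at 17.9, 17.2 and 15.8 CPM in ADAR1 p110 replicates 1, 2 and 3, against 25.5, 27.0 and 25.5 CPM in the GFP replicates. The groups did not come near each other, and the highest ADAR1 p110 library was below the lowest GFP library by more than the range within either group. ERN1 was 34.7% lower (log2 fold change -0.62, SE 0.066, 95% interval -0.76 to -0.47, edgeR adjusted p = 0.000358), and it stayed called when any 1 of the 6 libraries was dropped. EIF2AK3, the gene of PERK, had 36.4, 36.5 and 38.1 CPM in the ADAR1 p110 libraries, against 39.9, 42.5 and 39.1 CPM in the GFP libraries. ATF6 had 103, 105 and 105 CPM in the ADAR1 p110 libraries, against 112, 109 and 112 CPM in the GFP libraries. Both sensors were below GFP in all 3 libraries without passing the test, with log2 fold changes of -0.13 (95% interval -0.26 to -0.01, edgeR adjusted p = 0.244) and -0.09 (-0.19 to 0.01, adjusted p = 0.344). XBP1, which encodes the transcription factor made after IRE1 splicing, had 91.4, 106 and 108 CPM in the ADAR1 p110 libraries, against 101, 106 and 101 CPM in the GFP libraries. Its groups overlapped, with ADAR1 p110 replicate 1 lowest, and its log2 fold change was -0.02 (-0.16 to 0.13, adjusted p = 0.930). Counts per gene do not separate spliced from unspliced XBP1, so they do not measure IRE1 activity.

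**Figure D2:**
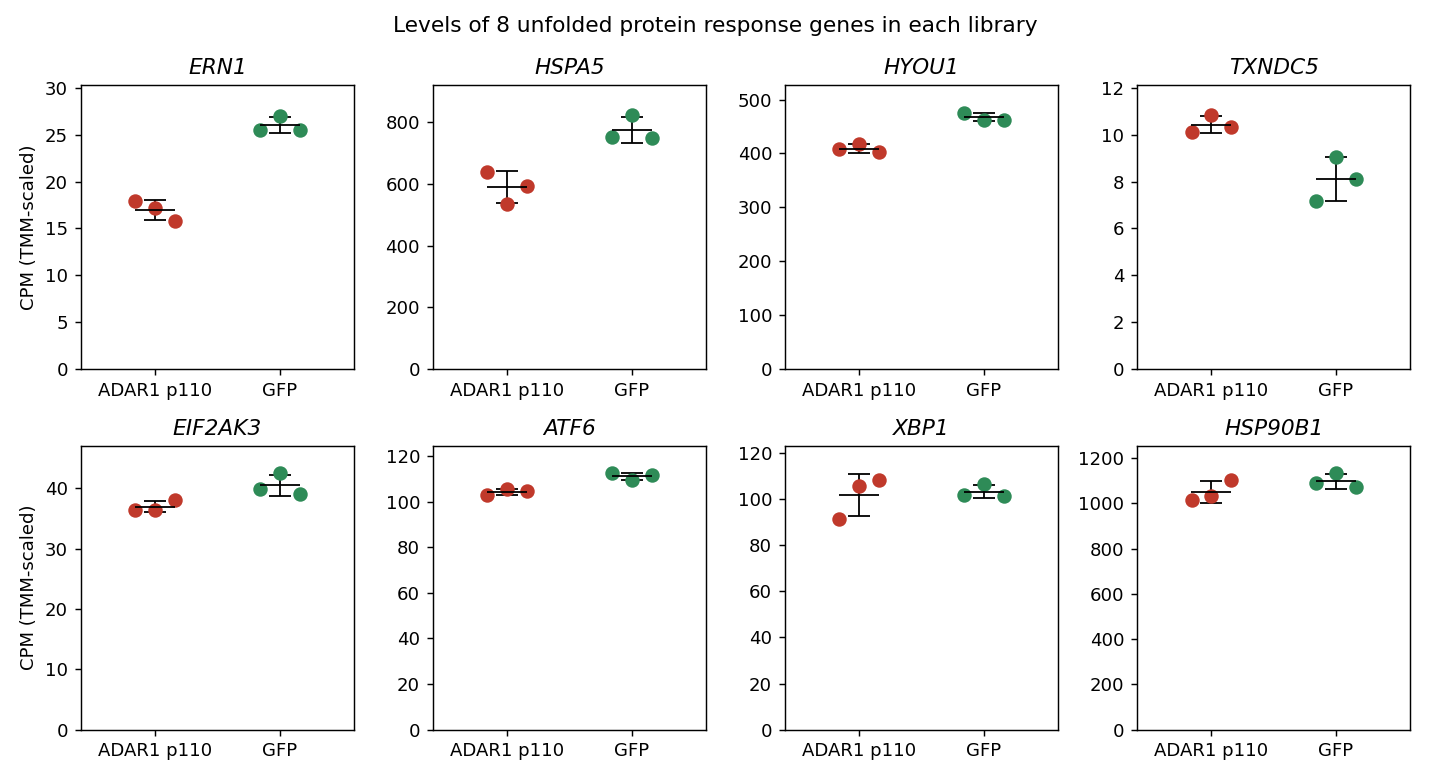
CPM of 8 member genes in each library, on axes that start at 0, with ADAR1 p110 in red on the left, GFP in green on the right, and the group mean and SD in black (n = 3 per group). ERN1 (17.0 ± 1.05 against 26.0 ± 0.862 CPM), HSPA5 and HYOU1 are lower and TXNDC5 is higher with ADAR1 p110, while XBP1 and HSP90B1 overlap.

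BiP had the largest fold change of the 10 member chaperones and cochaperones. HSPA5 (hg19 chromosome 9, 127997132 to 128003609, minus strand), an HSP70-type chaperone of the lumen, had 640, 536 and 592 CPM in the ADAR1 p110 libraries, against 753, 823 and 748 CPM in the GFP libraries. All 3 ADAR1 p110 libraries lay below the GFP range, although replicates within a group also differed. It was 23.9% lower (log2 fold change -0.39, SE 0.069, 95% interval -0.55 to -0.24, edgeR adjusted p = 0.00788), and it stayed called when any 1 of the 6 libraries was dropped, with adjusted p up to 0.0430. HYOU1 (hg19 chromosome 11, 118914900 to 118927913, minus strand) encodes GRP170, which exchanges nucleotide on BiP and acts as a holding chaperone. It had 407, 417 and 402 CPM in the ADAR1 p110 libraries, against 475, 463 and 463 CPM in the GFP libraries. Spread within each group was small beside the gap between the groups, and HYOU1 was 12.4% lower (log2 fold change -0.19, SE 0.046, 95% interval -0.29 to -0.09, edgeR adjusted p = 0.0389). That call was lost whenever a library other than ADAR1 p110 replicate 1 was dropped (adjusted p = 0.084 to 0.185), and with library size alone (adjusted p = 0.054). With the replicate number as a block it also missed the threshold (adjusted p = 0.188).

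The other 8 chaperones and cochaperones did not pass the test. HSP90B1, the HSP90-type chaperone GRP94, had 1015, 1032 and 1103 CPM in the ADAR1 p110 libraries, against 1088, 1134 and 1070 CPM in the GFP libraries. Its groups overlapped, and its log2 fold change of -0.06 had a 95% interval of -0.18 to 0.05, which does not reach that of HSPA5. CALR and CANX, the lectin chaperones that hold newly glycosylated proteins, lay below GFP in every library, with log2 fold changes of -0.14 (edgeR adjusted p = 0.191) and -0.08 (adjusted p = 0.429). CALR had 698, 780 and 774 CPM in the ADAR1 p110 libraries, against 843, 812 and 832 CPM in the GFP libraries. CANX had 1641, 1655 and 1698 CPM in the ADAR1 p110 libraries, against 1756, 1774 and 1734 CPM in the GFP libraries. Among the J-domain cochaperones that pass clients to BiP, DNAJB11 (ERdj3) and DNAJC10 (ERdj5) also lay below GFP in every library, with log2 fold changes of -0.15 and -0.12. DNAJB11 had 59.2, 57.8 and 62.6 CPM in the ADAR1 p110 libraries, against 66.7, 64.6 and 67.9 CPM in the GFP libraries. It overlaps TBCCD1, which lies on the other strand and had 24.9% as many counts. DNAJC10 had 198, 194 and 200 CPM in the ADAR1 p110 libraries, against 214, 220 and 210 CPM in the GFP libraries. The J-domain genes DNAJB9 and DNAJC3 overlapped between groups, at log2 fold changes of -0.17 and -0.01. DNAJB9, also called ERdj4, overlaps PNPLA8 and THAP5, which lie on the other strand and had 280% and 157% as many counts, and whether counting used the strand is not stated. SDF2L1, a lumenal partner of the J-domain proteins, had a log2 fold change of 0.06 (95% interval -0.11 to 0.23).

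The disulfide isomerases, which form and rearrange cysteine bonds, included the 1 member that rose. TXNDC5 (hg19 chromosome 6, 7881750 to 7911047, minus strand), also called ERp46, had 10.1, 10.8 and 10.3 CPM in the ADAR1 p110 libraries, against 7.18, 9.03 and 8.11 CPM in the GFP libraries. Its span holds the readthrough gene BLOC1S5-TXNDC5 on the same strand, which had 0 counts, and how reads in exons that both share were assigned is not stated. The ADAR1 p110 libraries lay close together above the wider GFP range, and the log2 fold change was 0.37 (SE 0.091, 95% interval 0.16 to 0.57, edgeR adjusted p = 0.0464). The call was lost when ADAR1 p110 replicate 2 or 3 or GFP replicate 1 or 3 was dropped (adjusted p = 0.129 to 0.171), as it was with the replicate number as a block (adjusted p = 0.0719). ERP44, which retains unassembled proteins in the early secretory pathway, came nearest to the threshold among members that missed it. It had 37.9, 36.7 and 38.9 CPM in the ADAR1 p110 libraries, against 42.5, 45.8 and 42.9 CPM in the GFP libraries. The groups did not overlap, with a log2 fold change of -0.21 (edgeR adjusted p = 0.0619), and the Wald test of DESeq2 called it lower (adjusted p = 0.0372), as did edgeR without ADAR1 p110 replicate 1 (adjusted p = 0.0446). PDIA3, PDIA4 and PDIA6 had log2 fold changes of -0.13, -0.11 and -0.09, and only PDIA6 had its libraries apart from GFP, at 396, 407 and 403 CPM with ADAR1 p110 and 435, 426 and 420 CPM with GFP. PDIA3, the isomerase that works with the lectin chaperones, had 267, 314 and 325 CPM in the ADAR1 p110 libraries, against 323, 331 and 335 CPM in the GFP libraries, and ADAR1 p110 replicate 1 lay well under all others.

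None of the 7 genes of ER-associated degradation passed the test, and their median log2 fold change was -0.07. DERL1 and SYVN1, a retrotranslocation factor and the ubiquitin ligase HRD1, lay below GFP in every library, with log2 fold changes of -0.10 (edgeR adjusted p = 0.293) and -0.14 (adjusted p = 0.202). DERL1 had 84.9, 83.8 and 86.1 CPM in the ADAR1 p110 libraries, against 92.5, 89.2 and 91.3 CPM in the GFP libraries. DERL1 overlaps TBC1D31 and DERL2 overlaps MIS12, both on the other strand, with 44.3% and 63.1% as many counts. SYVN1 had 34.6, 32.4 and 33.7 CPM in the ADAR1 p110 libraries, against 38.1, 35.6 and 37.4 CPM in the GFP libraries. Its span overlaps FAU on the same strand and MRPL49 on the other, with 855% and 304% as many counts, so its reads may have been assigned unevenly. SEL1L, the partner of that ligase, DERL2 and the mannosidase-like EDEM1 overlapped between groups at -0.02, -0.05 and -0.05, as did HERPUD1, which organises the ligase complex, at -0.07. The 95% interval of SEL1L, -0.16 to 0.13, does not reach that of HSPA5, -0.55 to -0.24. The wider interval of EDEM1, -0.26 to 0.16, overlaps that of HSPA5. DERL3, a relative of DERL1 known from secretory cells, was barely present, with 0.342, 0.162 and 0.621 CPM in the ADAR1 p110 libraries and 0.588, 0.193 and 0.498 CPM in the GFP libraries. SMARCB1, which overlaps it on the other strand, had 11800% as many counts, so the origin of these reads is uncertain.

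The remaining members serve entry, glycosylation, export and secretion. SEC61B, a subunit of the channel through which proteins enter the ER, had 81.8, 88.3 and 81.2 CPM in the ADAR1 p110 libraries, against 97.6, 85.4 and 94.7 CPM in the GFP libraries. GFP replicate 2 fell inside the ADAR1 p110 range, and the log2 fold change was -0.14 (edgeR adjusted p = 0.251). OSTC, a subunit of the oligosaccharyltransferase that attaches N-glycans, had 134, 130 and 131 CPM in the ADAR1 p110 libraries, against 147, 146 and 141 CPM in the GFP libraries, with the groups apart (-0.14, adjusted p = 0.145). SEC24D, a cargo adaptor of the COPII coat, overlapped at -0.07. MANF, a secreted stress protein that binds BiP, had 70.0, 88.7 and 85.3 CPM in the ADAR1 p110 libraries, against 99.4, 89.9 and 96.7 CPM in the GFP libraries. The groups were separated by a narrow gap, and the log2 fold change of -0.23 (95% interval -0.41 to -0.04, edgeR adjusted p = 0.165) came with ADAR1 p110 replicate 1 as the lowest library. Its neighbour in role, CRELD2, had a log2 fold change of 0.01 (-0.20 to 0.22), and it overlaps ALG12, a gene of the opposite strand that had 195% as many counts.

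Taken as a share of all counts, with no further scaling, the 31 genes made up 0.715%, 0.713% and 0.737% of ADAR1 p110 libraries 1, 2 and 3, against 0.773%, 0.789% and 0.763% of the GFP libraries. The share was lower in each ADAR1 p110 library than in any GFP library. Without HSPA5 it was 0.650%, 0.659% and 0.678% in the ADAR1 p110 libraries, against 0.699%, 0.707% and 0.689% in the GFP libraries, and the groups still did not overlap. CANX, HSP90B1, CALR and HSPA5 together took 56.0% to 57.4% of the members' counts over the 6 libraries, so that the sum mostly follows these 4 genes.

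Per length, the members spanned from some of the most abundant transcripts of these cells to a gene that was barely present. On the scale of CPM per kilobase of gene length, CALR led with 277 ± 16.8 in the ADAR1 p110 libraries and 305 ± 5.74 in the GFP libraries (SD, n = 3 each). CANX, at 267 ± 4.77 and 281 ± 3.21, and HSP90B1, at 224 ± 9.96 and 234 ± 6.96, followed in the same order of groups, and then HSPA5, at 151 ± 13.3 with ADAR1 p110 and 198 ± 10.8 with GFP. In the GFP libraries these 4 genes were in the top 1% of tested genes per length and 12 members were in the top 10%. ERN1, at 1.56 ± 0.0965 with ADAR1 p110 and 2.39 ± 0.0794 with GFP, was near the middle of all genes, at the 49.6th percentile in GFP. Across the 30 neighbouring pairs of the GFP order, 6 had overlapping ranges, among them SEC61B and PDIA3, DERL1 and SEL1L, and CRELD2 and ERN1. In the ADAR1 p110 libraries the ranges of CALR and CANX overlapped. In that group 8 members took another rank than in GFP. Among them were ERN1 and TXNDC5, with ERN1 below TXNDC5 in all 3 ADAR1 p110 libraries and above it in all 3 GFP libraries. How reads shared with BLOC1S5-TXNDC5 were assigned is not stated, so the place of TXNDC5 in this order is uncertain. The same limit applies to SYVN1, which overlaps FAU.

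**Figure D3:**
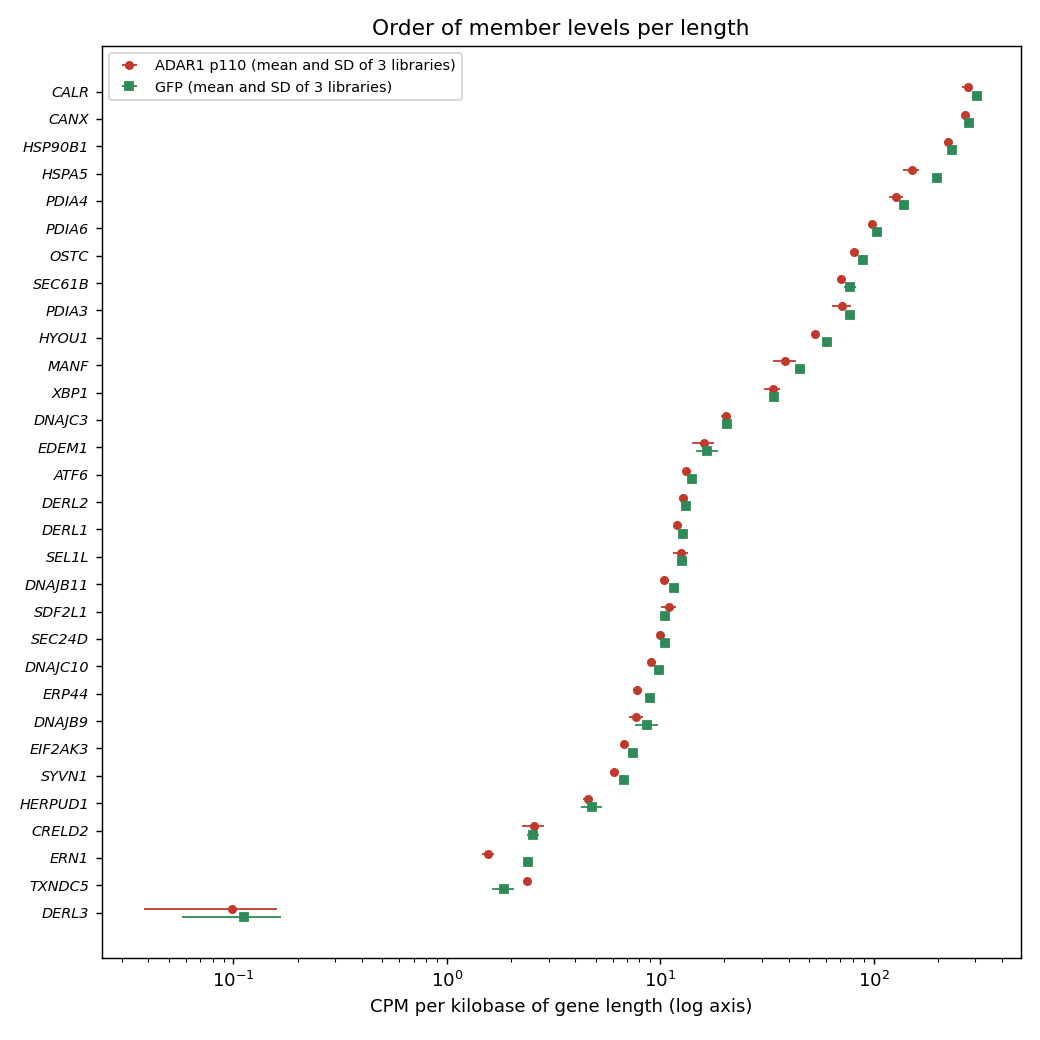
Level of the 31 member genes per kilobase of gene length on a log axis, as mean and SD of 3 libraries, with ADAR1 p110 as red circles and GFP as green squares, ordered by the GFP mean. The lectin chaperones CALR and CANX lead and DERL3 is lowest, and most ADAR1 p110 points lie slightly left of the GFP points.

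Within groups the members did not vary as a block. In ADAR1 p110 replicate 1, EDEM1, SEL1L, HSPA5 and DNAJB9 were above the mean of replicates 2 and 3 by 0.28, 0.19, 0.18 and 0.18 on the log2 CPM scale. MANF, PDIA3, XBP1 and CRELD2 were below it, at -0.31, -0.26, -0.23 and -0.22. GFP replicate 2, set against GFP replicates 1 and 3, gave 0.28 for EDEM1, 0.28 for DNAJB9 and 0.27 for HERPUD1 at the upper end and -0.17 for SEC61B and -0.13 for MANF at the lower end, DERL3 aside. Both libraries deviated the same way in 23 members (11 up and 12 down) and opposite ways in 8. The deviations of the 2 libraries correlated across the 31 members at Pearson's r = 0.461 and Spearman's rho = 0.568, and across all tested genes at 0.326 and 0.319, as a description over genes that share both libraries. The deviation of ADAR1 p110 replicate 1 correlated with gene length at Spearman's rho = 0.404 over the members and 0.212 over all tested genes. For GFP replicate 2 these values were 0.213 and 0.0904, and the part of gene length in the deviations was not tested. Ribosomal protein genes made up 4.14% of counts in ADAR1 p110 replicate 1 and 4.20% in GFP replicate 2, and 4.58% to 4.70% in the other 4 libraries, and the part of this difference in the members' values was not tested. With both of these libraries left out, 9 members were called lower and 1 higher, at a background of 7.32% and 6.07% of genes. The added lower members were DNAJB11, ERP44, MANF, OSTC, SEC61B and SYVN1, with log2 fold changes of -0.19 to -0.14. The 2 libraries were picked for standing apart in these same data. Leaving out such libraries tends to lower the spread within groups, so the added calls are no independent evidence.

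**Figure D4:**
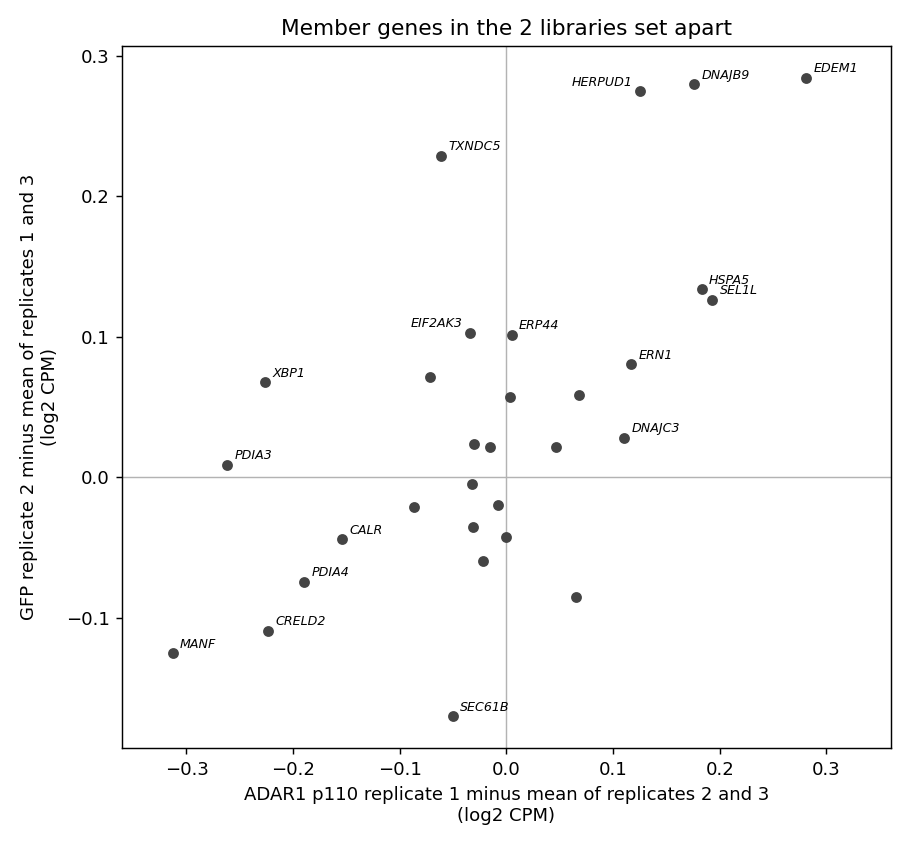
Deviation of ADAR1 p110 replicate 1 from the mean of replicates 2 and 3 (horizontal axis) against the deviation of GFP replicate 2 from the mean of replicates 1 and 3 (vertical axis), both in log2 CPM, for 30 member genes. EDEM1, DNAJB9 and HERPUD1 are high in both libraries and MANF, CRELD2 and PDIA4 low in both, and DERL3 is left out.

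Members with an ER stress element in their promoter window had a range of log2 fold changes, of which only those of HSPA5 and HYOU1 passed the test. The 7 with the first form had log2 fold changes between -0.39 (HSPA5) and 0.01 (CRELD2), with XBP1 at -0.02, HSP90B1 at -0.06, CANX at -0.08, PDIA6 at -0.09 and CALR at -0.14. The 3 with the second form were HYOU1 at -0.19, HERPUD1 at -0.07 and SDF2L1 at 0.06. ERN1 and TXNDC5, which also passed the test, had no exact match to either form in their windows. Whether fold changes differ among members with an element, or between members with and without one, was not tested.

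Other genes of the pathway were counted in 8 lists, 143 of whose 147 genes were tested. Of these 143, 4 fell and 3 rose, close to the shares of all tested genes (2.96% and 1.95%), with a median log2 fold change of -0.03. Among 13 partners of the ATF6 and IRE1 arms, 3 fell and none rose, beside 2.96% and 1.95% of all tested genes. The median log2 fold change of these 13 was 0.00, with values from -0.42 to 0.25. MAP3K5, the kinase ASK1 that IRE1 engages through the adaptor TRAF2, had 22.9, 22.5 and 22.5 CPM in the ADAR1 p110 libraries, against 29.4, 31.5 and 29.9 CPM in the GFP libraries. Its groups lay far apart relative to their spread (edgeR adjusted p = 0.00179 for a log2 fold change of -0.42, SE 0.057), and it stayed called when any 1 library was dropped. TRAF2 itself was lower, at 45.5 ± 0.740 CPM with ADAR1 p110 and 54.1 ± 1.04 CPM with GFP (SD, n = 3 each; log2 fold change -0.25, adjusted p = 0.0176). CREB3, a membrane-bound transcription factor related to ATF6, had a log2 fold change of -0.31 (adjusted p = 0.0106), and it overlaps TLN1 and GBA2 with 928% and 55.9% as many counts. Dropping any of ADAR1 p110 replicate 3, GFP replicate 1 and GFP replicate 3 ended both calls, and dropping ADAR1 p110 replicate 2 ended that of TRAF2 (adjusted p = 0.0545 to 0.110). Both were also lost with the replicate number as a block (0.0863 and 0.0645).

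Targets of PERK and the integrated stress response gave 1 higher gene of 16 and none lower, beside 1.95% and 2.96% of all tested genes, with a median log2 fold change of 0.00. That gene was DDIT4, an inhibitor of mTOR signalling also induced by hypoxia and steroids, at 329 ± 9.53 CPM with ADAR1 p110 and 264 ± 10.1 CPM with GFP (log2 fold change 0.32, edgeR adjusted p = 0.00461). ATF4 and DDIT3, the main transcription factors of that arm, were picked after their values were seen and had log2 fold changes of 0.00 and -0.09 (adjusted p = 0.984 and 0.766).

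In the 6 lists of ER machinery, 3 genes passed the test, a share no higher than the 4.91% of all tested genes. Of 19 further oxidoreductases, SELENOM, a selenoprotein of the ER, was lower (log2 fold change -0.42, edgeR adjusted p = 0.0302) and TMX4, a membrane-bound thioredoxin-like protein, was higher (0.22, adjusted p = 0.0364). Of 24 further degradation genes, FAM8A1, a cofactor of the ligase HRD1, was higher (0.31, adjusted p = 0.0285). Dropping ADAR1 p110 replicate 2 or 3 or GFP replicate 1 or 3 ended the calls of SELENOM and FAM8A1 and that of TMX4, which dropping GFP replicate 2 also ended (adjusted p up to 0.153). All 3 were also lost with the replicate number as a block (adjusted p = 0.0744 to 0.137). No gene passed among 18 further chaperones, 23 translocon genes, 16 glycosylation genes or 14 COPII coat genes, whose medians were 0.00, -0.05, -0.07 and -0.04. Their most abundant genes per length were the prolyl isomerase PPIB, the signal recognition particle gene SRP9, the glycosylation subunit RPN2 and the coat gene SEC24C, with log2 fold changes of -0.13, 0.08, -0.09 and -0.13.

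**Figure D5:**
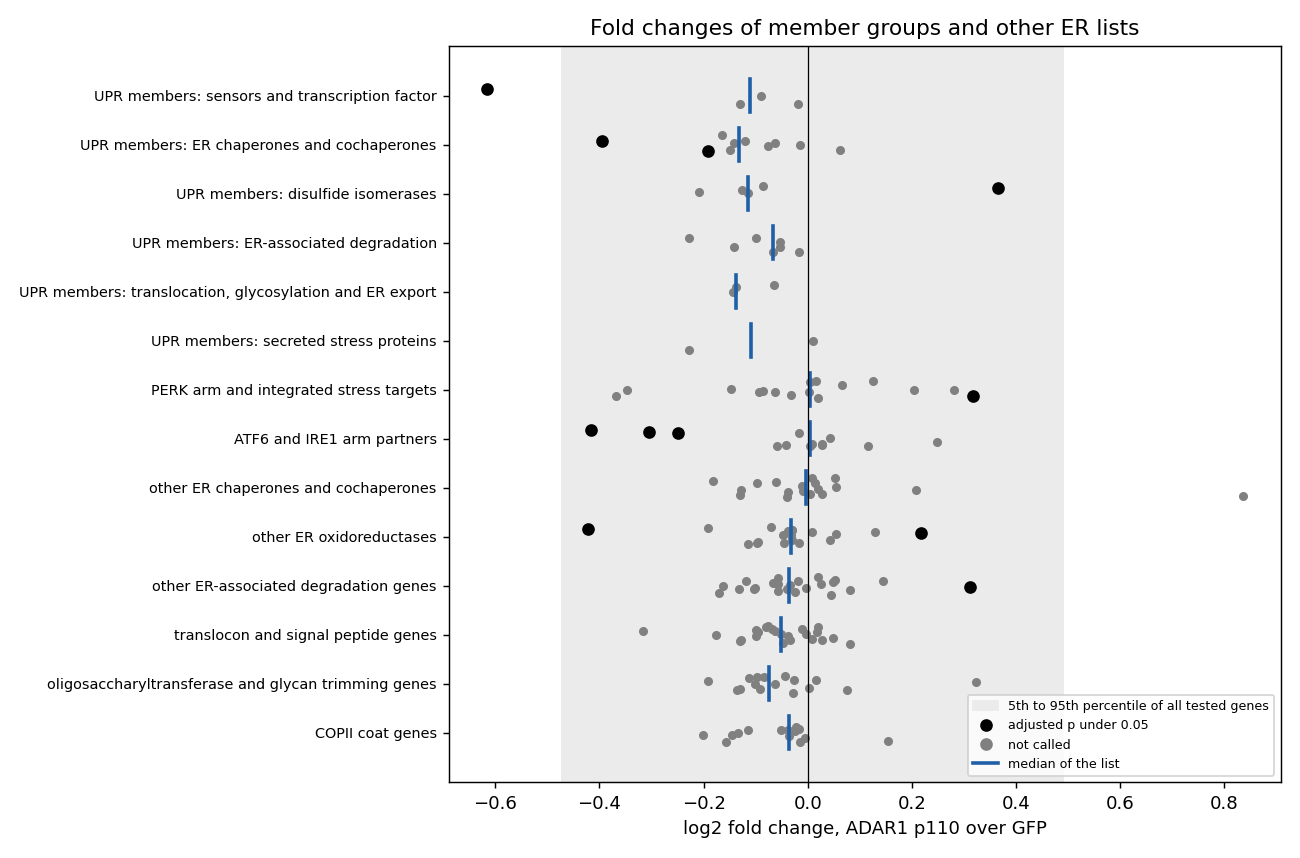
Horizontal axis, log2 fold change (ADAR1 p110 over GFP), for the tested genes of each member group and of the 8 other lists, with called genes in black, others in grey, list medians as blue bars and the grey band spanning the 5th to the 95th percentile of all tested genes. The 6 member groups have medians between -0.14 and -0.07, the other lists between -0.07 and 0.00.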

How the data were processed

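Total RNA of 6 libraries, 3 per group, was sequenced after preparation with a stranded kit, per the labels' protocols. Per the submitters' processing notes, which name STAR 2.5.2a, featureCounts 1.5.1 and hg19, the authors aligned and counted the reads and deposited raw counts per gene with coordinates and lengths. How strand, multiply aligned reads and duplicates were treated is not stated.

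Genes were filtered by filterByExpr (minimum count 10), scaled by the trimmed mean of M-values (TMM) to CPM and tested in edgeR 4.0.16 (R 4.3.3) by glmQLFit and glmQLFTest with group as the only term, with Benjamini-Hochberg adjustment over 18899 genes and a threshold of 0.05. The glmTreat function tested against 1.5-fold. SE is the log2 fold change divided by the square root of F, and intervals are 95%. Levels compared between genes were divided by deposited gene length. Alternatives were other scalings, no filter, limma-voom (limma 3.58.1), the DESeq2 1.42.0 Wald test, a replicate block, removal of ADAR counts and leaving out libraries. The fits were tested on simulated data.

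Members, lists, tests and alternatives were chosen with earlier results of these data known. All members were named, and from each other list up to 4 called genes with the smallest p or, where none was called, the most abundant per length. Replicates of a group differed by 8.64 to 39.6 chi-square per degree of freedom, more than sampling noise. Promoter sequences are RefSeq's. Figures used matplotlib 3.10.9.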

Additional observations from a re-analysis of the deposited data

How the results depend on the processing

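ERN1 and HSPA5 were called lower under every alternative tried, HSPA5 at log2 fold changes of -0.46 to -0.33, and ADAR was called higher wherever its counts were kept. Leaving out each library in turn gave 100 to 795 higher and 296 to 1017 lower genes, 0 or 1 higher and 2 to 4 lower members, and member medians of -0.119 to -0.0933. With both ADAR1 p110 replicate 1 and GFP replicate 2 left out there were 1181 higher and 1424 lower genes and 9 lower members, with a member median of -0.0819. Without a low-count filter 742 genes were higher, and by the DESeq2 Wald test 591. With library size alone the member median was -0.0906, against a median of 0.0285 over all genes, and 25 members were negative. The replicate block gave 175 higher and 333 lower genes, 0 higher and 2 lower members. The numbers pair nothing in the labels, the deviations of same-numbered libraries correlated at -0.204, -0.153 and 0.0997, and no library correlated best with its own number. Among single genes and lists, 729 values stayed the same by direction and threshold or, for counts, in size, 37 moved, 10 gained a call and 37 lost one. Another 26 log2 fold changes, none called, changed sign. With library size alone these were XBP1 (0.0053), DNAJC3 (0.010) and SEL1L (0.0076), and with the 2 libraries left out together XBP1 (0.0796) and DDIT3 (0.0402). Over the fits without 1 library, XBP1 ranged from -0.062 to 0.054, DNAJC3 from -0.052 to 0.015, DERL3 from -0.80 to 0.16, EDEM1 from -0.15 to 0.053, HERPUD1 from -0.12 to 0.036, SEL1L from -0.084 to 0.031 and CRELD2 from -0.088 to 0.084. SRP9 ranged from -0.023 to 0.14, ATF4 from -0.038 to 0.077 and DDIT3 from -0.19 to 0.061. The cause was not tested. DERL3, with 14 to 51 counts a library, had a 95% interval of -1.32 to 0.87.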
